A study of Mus musculus with 219 samples.

Results

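Transcripts of 10 serotonin receptor genes were followed in mouse left pre-frontal cortex, 10 of the 55487 gene identifiers counted. The members were taken by name, whatever their levels: Htr1a, Htr1b, Htr1d, Htr1f and Htr5a, Htr2a and Htr2c, Htr3a, Htr4 and Htr7. All 10 identifiers were found in GENCODE mouse release M21 on GRCm38, and all 10 passed the filter on low counts in both tables of the study.

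Serotonin reaches the cortex along axons of the raphe nuclei in the brainstem and acts through receptors of several signalling classes. Receptors of the Htr1 family and Htr5a couple to inhibitory G proteins, those of the Htr2 family to the Gq class and phospholipase C, and Htr4 and Htr7 to the stimulatory Gs class and adenylyl cyclase. Htr3a is a subunit of a ligand-gated ion channel. In the cortex Htr2a is known as a receptor of pyramidal neurons, Htr3a as a marker of a class of interneurons, and Htr1b and Htr1d as receptors that also sit on axon terminals and restrain transmitter release. Htr2c pre-mRNA is edited and alternatively spliced, and the small nucleolar RNA Snord115, which shares a host transcript with Snord116, carries a sequence complementary to it. Gene counts measure neither editing nor splicing.

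The study asked how light and sex shape the effects of a Snord116 genotype, and its RNA was ribosome-depleted total RNA read from both sexes. In the ZT06 experiment (6 h after lights on), 126 libraries came from mice entrained to 11 h of light and 11 h of dark (11:11) or to 12 h and 12 h (12:12). These mice entered light-controlled incubators at about 8 weeks of age, had 7 days to acclimate and 22 days of entrainment at 22 °C, in 1 of 2 sets. The calorimetry set then moved into chambers for indirect calorimetry, with collection in D:D, that is, without light. The running wheel set spent the last 7 of those days in wheel cages, with collection in L:D, its light cycle. The genotypes were HET/WT, WT/TG, HET/TG and WT/WT, written out as Snord116+/-Ctg-/-, Snord116+/+Ctg+/-, Snord116+/-Ctg+/- and Snord116+/+Ctg-/- in that order. They gave 32 groups by genotype, sex, set and light cycle, of 4 libraries each and of 3 in 2 WT/TG male groups. The time course, called an atlas in the labels, holds 92 WT/WT libraries from mice of about 12 weeks in home cages on 12:12, at 8 zeitgeber times (ZT, hours after lights on), with 6 mice per sex and time and 5 at ZT18 and ZT21. The labels call the replicates biological, so they stand for separate mice, and each test set an effect against the spread between these mice. They do not say whether the sexes or the sets were dissected, prepared or sequenced together, so sex cannot be told apart from such a batch, nor set from a batch, the device and the lighting at collection.

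Libraries held 12737699 to 29856536 counts in the ZT06 experiment and 12995491 to 18420258 in the time course. The tissue carried cortical markers in both tables: Slc17a7, a glutamate transporter of cortical excitatory neurons, had a median of 1067 CPM (counts scaled to library size) at ZT06 and 1013 CPM in the time course. Slc6a4, the transporter that marks serotonin neurons, was at 0 in 71 of 126 ZT06 libraries and 47 of 92 of the time course. The other serotonin neuron markers listed were mixed. Fev had a median of 0 CPM in both tables. Tph2 was counted in every library (lowest count 4), with medians of 1.07 CPM at ZT06 and 1.18 CPM in the time course. Slc22a3 had medians of 1.62 CPM and 1.13 CPM. Markers of striatal projection neurons were present at very unequal levels, and the sum over 11 of them ran between 195 and 2154 CPM in the time course and between 181 and 2109 CPM at ZT06. In bulk RNA, fewer cells of a type and less RNA per cell cannot be told apart. Snhg14, the host transcript of Snord116, checked the Snord116 part of the labels: its median was 33.2 CPM (HET/WT), 185 CPM (WT/TG), 32.8 CPM (HET/TG) and 188 CPM (WT/WT). At 167 CPM, 1 library went against its label, HET/WT replicate 3 among running wheel females on 11:11. Snhg14 did not separate labels with and without Ctg, so the Ctg part was not checked. Another library, a calorimetry male on 11:11 labelled HET/TG replicate 4, had counts for 16836 genes, where the median of its table was 23080, and no count for Htr7. It was 1 of the 4 ZT06 libraries least correlated with the rest, all 4 of them calorimetry males. In the time course the 4 least correlated libraries were the male ZT00 replicate 1 and the female ZT00 replicate 6, ZT03 replicate 5 and ZT21 replicate 4. The called rhythms, the Htr7 difference between sets and the Htr1d light cycle effect in calorimetry mice are given with and without the least correlated libraries. HET/WT results are given with and without the library against its label. The sex comparisons and that of HET/TG with WT/WT are not given without the 4 least correlated libraries.

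Htr2a was the most abundant of the 10 transcripts per kilobase of exon, and Htr4 and Htr1d were the scarcest. Levels were compared between genes as CPM per kilobase, scaled by TMM, edgeR's method for library size. Htr2a averaged 11.3 ± 2.91 CPM per kb at ZT06 (SD, n = 126) and 7.63 ± 2.08 in the time course (n = 92). Htr1d averaged 0.406 ± 0.332 CPM per kb at ZT06 and 0.404 ± 0.391 in the time course. Its median count per library was 17 at ZT06 and 15 in the time course, so counting error is large for this receptor.

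The other receptors lay between them. At ZT06 the order below Htr2a was Htr5a (4.13 ± 0.803 CPM per kb), Htr1a (3.76 ± 0.639), Htr1b (3.43 ± 1.48), Htr2c (2.24 ± 0.976), Htr7 (2.15 ± 0.480), Htr1f (2.08 ± 0.407), Htr3a (1.76 ± 0.419) and Htr4 (0.406 ± 0.199). In the time course it was Htr1a (3.96 ± 0.698), Htr5a (3.91 ± 0.407), Htr1b (2.85 ± 1.17), Htr7 (2.31 ± 0.407), Htr2c (2.21 ± 1.14), Htr1f (1.80 ± 0.333), Htr3a (1.44 ± 0.323) and Htr4 (0.528 ± 0.338). In both tables the SD bands of neighbours in the order were apart at 2 steps only, below Htr2a and between Htr3a and Htr4, and the bands of all other neighbours overlapped. Htr1b, Htr2c, Htr4 and Htr1d varied most between libraries relative to their means, and Htr5a least in the time course.

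**Figure D1:**
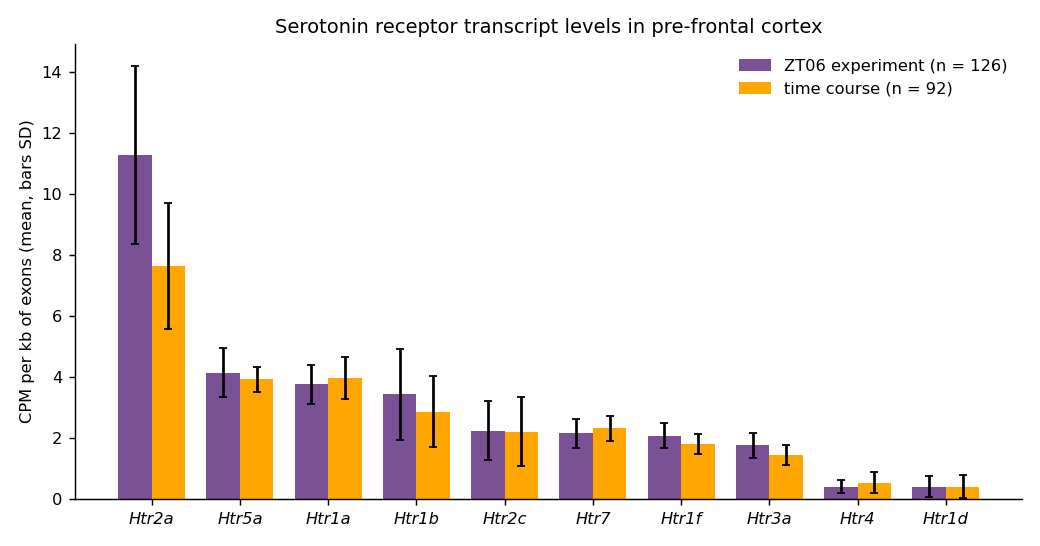
Bars give the mean level of each receptor in CPM per kb of exons, in the ZT06 experiment (126 libraries) and the time course (92 libraries), with SD as error bars. Htr2a stands above the rest at 11.3 and 7.63 CPM per kb, and Htr4 and Htr1d lie at the bottom at 0.404 to 0.528 CPM per kb.

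Over the day, Htr1b was the receptor with the most secure rhythm. Rhythm was tested as a cosine and sine of 24 h with sex in the model, in edgeR's quasi-likelihood test. Here and below, p-values were adjusted by Benjamini-Hochberg across every gene of the table (17193 in the time course), and a gene was called at an adjusted p under 0.05. Htr1b transcripts peaked in the late dark phase at ZT20.8 (95% interval 19.7 to 21.8) and were 1.61-fold higher at the fitted peak than at the trough (1.41 to 1.84, adjusted p = 1.09e-07). Htr4, Htr2c, Htr3a, Htr1a and Htr5a were also called, which made 6 of 10 members, against 41.4% of all genes tested. The members' share lies near that background, so the count says little about receptors as a group. Fitted in males alone 5 of 10 were called, against 25.9% of genes, and in females alone 2 of 10, Htr1b and Htr1a, against 19.2%.

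Htr1b, whose product is an autoreceptor and heteroreceptor on axon terminals, lies on the minus strand of chromosome 9 at 81628291 to 81633828. Its lowest, median and highest levels were 8.77, 12.2 and 30.5 CPM at ZT0, 7.24, 12.8 and 23.6 CPM at ZT3, 5.70, 11.1 and 20.0 CPM at ZT6, and 5.21, 8.92 and 19.1 CPM at ZT9 (n = 12 each). They were 7.06, 9.63 and 25.1 CPM at ZT12, 8.54, 11.7 and 19.3 CPM at ZT15 (n = 12 each), 9.86, 14.5 and 28.5 CPM at ZT18, and 10.9, 17.3 and 25.99 CPM at ZT21 (n = 10 each). The medians were lowest at ZT9 and highest at ZT21, and the ranges of all times overlapped. In males alone these 2 times did not overlap, with 5.21 to 8.26 CPM at ZT9 and 10.9 to 17.8 CPM at ZT21. In females they overlapped, with 9.57 to 19.1 CPM at ZT9 and 16.8 to 25.99 CPM at ZT21. The fitted fold was 1.68 in males alone (peak ZT20.7, adjusted p = 4.70e-07) and 1.56 in females alone (peak ZT20.9, adjusted p = 0.0156). The call held under all 17 alternatives tried, also without the 4 least correlated libraries (adjusted p = 1.02e-07) and with the level of striatal markers as a covariate (adjusted p = 1.75e-14).

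The promoter of Htr1b is shown because its rhythm had the smallest p-value of the members, and those of Htr1d, which has 2 annotated starts, because its log2 changes between sexes and between sets were the largest of the members. Each window runs 250 bases before to 50 bases after an annotated start, from RefSeq on GRCm38.p6, read on the strand of the gene, with the 50 bases from the start on in capitals. They lie at chr9:81633783-81634082 (minus strand), chr4:136423274-136423573 and chr4:136424362-136424661 (plus strand).
Htr1b: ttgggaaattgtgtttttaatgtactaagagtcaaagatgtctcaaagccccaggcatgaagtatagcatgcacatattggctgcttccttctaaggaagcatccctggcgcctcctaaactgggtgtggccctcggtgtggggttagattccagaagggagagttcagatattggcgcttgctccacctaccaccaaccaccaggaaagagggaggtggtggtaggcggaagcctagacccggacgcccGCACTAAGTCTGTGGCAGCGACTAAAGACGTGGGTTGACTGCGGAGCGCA
Htr1d, upstream start: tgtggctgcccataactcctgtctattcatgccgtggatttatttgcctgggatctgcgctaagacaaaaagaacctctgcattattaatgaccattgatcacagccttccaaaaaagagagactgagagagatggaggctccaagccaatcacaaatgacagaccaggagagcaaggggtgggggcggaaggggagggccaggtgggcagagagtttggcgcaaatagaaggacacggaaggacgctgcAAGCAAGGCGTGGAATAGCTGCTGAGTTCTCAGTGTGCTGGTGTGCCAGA
Htr1d, downstream start: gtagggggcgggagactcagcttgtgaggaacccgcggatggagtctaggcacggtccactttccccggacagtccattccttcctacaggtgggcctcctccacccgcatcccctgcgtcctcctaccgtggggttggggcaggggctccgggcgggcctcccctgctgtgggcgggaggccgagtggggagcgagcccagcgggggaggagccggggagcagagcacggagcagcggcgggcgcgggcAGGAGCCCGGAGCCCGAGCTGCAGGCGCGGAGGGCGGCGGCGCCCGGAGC

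No window of Htr3a or Htr4, both called rhythmic, was searched for motifs. Windows on chromosome 18, where Htr4 lies, were left out before the search. Exact matches of clock and cAMP motifs were counted on both strands in 9 such windows of 8 members (Htr1a, Htr1b, Htr1d, Htr1f, Htr2a, Htr2c, Htr5a and Htr7). None held an E-box (CACGTG, present in 7.15% of 32851 RefSeq windows of the same length), a D-box (TTATGTAA or TTACGTAA, 1.06%) or a full cAMP response element (TGACGTCA, 1.79%). The shorter element TGACG, which overlaps the full one and was in 20.8% of windows, matched once, in that of Htr7. The GC content of the windows was 53.3% for Htr1b, 52.0% and 74.3% for the upstream and downstream Htr1d starts, and 81.0% for Htr7. An absent match says only that these letters are not in these windows.

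Htr4 and Htr2c, a Gs-coupled and a Gq-coupled receptor, both peaked around lights on, and the fold of Htr4 was the largest of the 6 called members. Htr4 (chromosome 18, 62324204 to 62496577, plus strand) was 1.79-fold higher at peak than at trough (1.36 to 2.37), with its peak at ZT0.66 and an adjusted p of 0.00170. In males, its lowest, median and highest levels were 0.689, 4.40 and 8.76 CPM at ZT0, 2.19, 5.11 and 6.58 CPM at ZT3 (n = 6 each), 1.84, 3.85 and 5.97 CPM at ZT21 (n = 5), and 1.32, 1.89 and 2.88 CPM at ZT12 (n = 6). In females the median ran only between 1.01 CPM at ZT21 and 1.95 CPM at ZT3. Fitted alone, males gave a 2.41-fold rhythm (1.68 to 3.46, adjusted p = 0.00118) and females 1.28-fold (1.00 to 1.94, adjusted p = 0.637). A sex difference in rhythm was called for 0 of the 10 members, against 0.0756% of all genes, so the sexes were not shown to differ for Htr4 or any other member. At an unadjusted p under 0.05 there were 0 members too, against 7.76% of genes, and DESeq2 and limma-voom called 0.

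Htr2c (X chromosome, 146962513 to 147197277, plus strand) was 1.54-fold higher at its fitted peak than at its trough (1.22 to 1.94), with the peak at ZT24.0 and an adjusted p of 0.00640. Its lowest, median and highest levels were 6.96, 23.2 and 56.0 CPM at ZT0 and 8.58, 15.9 and 36.6 CPM at ZT12 (n = 12 each), and the groups overlapped widely. The 4 libraries least correlated with the rest, collected at ZT0, ZT3 and ZT21, had levels of both receptors well above the median of the others. They held 56.0, 35.3, 38.96 and 84.3 CPM of Htr2c, where the other 88 libraries had a median of 17.4 CPM and a range of 5.96 to 44.97 CPM. They had 8.76, 6.76, 4.30 and 6.70 CPM of Htr4, against a median of 1.88 CPM and a range of 0.689 to 6.76 CPM in the others.

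The same 4 libraries also differed from the median of the others in markers of other tissue. Their choroid plexus sums lay within the range of the others, as did all hippocampal sums but the highest. The summed level of 5 hippocampal markers was 271, 243, 224 and 222 CPM in them, in the order just given, against a median of 140 CPM in the others (115 to 268). That of 8 choroid plexus markers was 739, 423, 775 and 19.5 CPM, against a median of 11.9 CPM in the others (3.90 to 999). The choroid plexus is known for abundant Htr2c. That of 7 oligodendrocyte markers was 2409, 2457, 2447 and 2190 CPM, below the whole range of the others (2951 to 4722). Olfactory markers summed to 23.6, 20.9, 21.4 and 30.5 CPM in the same order, against a median of 6.62 CPM (3.88 to 31.9). Claustrum and endopiriform markers summed to 192, 209, 218 and 208 CPM, against 114 CPM (67.5 to 225). Meninges markers summed to 115, 128, 162 and 117 CPM, against 70.3 CPM (27.3 to 120). Upper layer neuron markers were lower, at 656, 697, 671 and 685 CPM, against 854 CPM (688 to 1047). Not every marker list is given here. All 5 hippocampal markers were themselves called rhythmic, with a median fitted range of 0.70 on the log2 scale, as were 3 of 8 choroid plexus markers (1.54) and 5 of 7 oligodendrocyte markers (0.17). The female at ZT21 also held 10.3 CPM of Avp and 8.18 CPM of Oxt, hypothalamic peptide genes. Without the 4 libraries, the fitted log2 range of Htr2c was 0.36 (adjusted p = 0.115) and that of Htr3a 0.24 (adjusted p = 0.0666), and both calls were lost. Htr4 stayed called at 0.54 (adjusted p = 0.0454), as did Htr1a at 0.26 (adjusted p = 0.00393) and Htr5a at 0.17 (adjusted p = 0.00225). With Htr1b, 4 of 10 members were then called. The share of all genes called without the 4 libraries is not given here, so this count says little about receptors as a group. The part of hippocampal, choroid plexus, oligodendrocyte, olfactory, claustrum, meninges or upper layer content in the rhythms that remained was not tested.

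The other called receptors moved little over the day. Htr5a (chromosome 5, 27842149 to 27855088, plus strand) was 1.13-fold higher at ZT14.4 than at its trough (adjusted p = 0.000611), with medians between 19.004 CPM at ZT3 and 22.5 CPM at ZT9. Htr1a (chromosome 13, 105443639 to 105448122, plus strand), the somatodendritic inhibitory receptor, was 1.22-fold higher at ZT2.96 (adjusted p = 0.000931), with medians between 15.2 CPM at ZT15 and 19.3 CPM at ZT3. Htr3a (chromosome 9, 48899213 to 48911099, minus strand) was 1.23-fold higher at ZT22.0 (adjusted p = 0.0145), with medians between 2.62 CPM at ZT12 and 3.40 CPM at ZT21. Ranges of these receptors overlapped between all times.

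Of these, Htr3a also lost its call without replicate number 1 or 2, with time as a factor and in females alone, and Htr2c without replicate number 1 or 6, with time as a factor and in each sex alone. Htr4 lost it without replicate number 6. No rhythm was called for Htr1d (1.43-fold, adjusted p = 0.325), Htr2a (1.07-fold, adjusted p = 0.482), Htr1f (1.03-fold, adjusted p = 0.832) or Htr7 (1.01-fold, adjusted p = 0.987). The upper 95% limit of the fold was 1.18 for Htr2a and 1.13 for Htr1f, whereas it was 2.13 for Htr1d, which leaves room for a sizeable rhythm at its low counts.

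**Figure D2:**
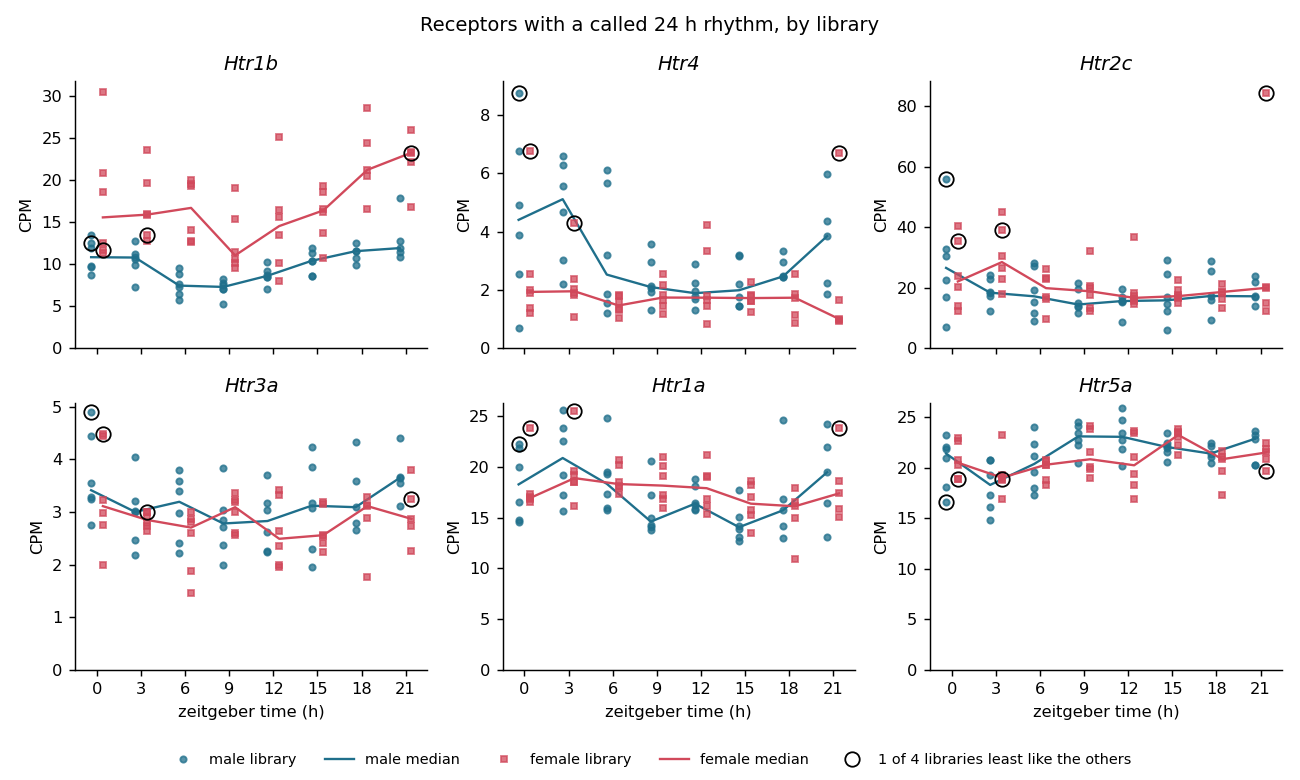
Each point is a library of the time course, with CPM on the vertical axis and zeitgeber time in hours on the horizontal axis, males left of females at each time, lines joining the medians of each sex, and rings on the 4 libraries least correlated with the rest. Htr1b rises towards ZT21 in both sexes, and the highest value of Htr2c (84.3 CPM, at ZT21) and that of Htr4 (8.76 CPM, at ZT0) are both ringed.

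Rhythms were called for other genes of the serotonin pathway too, as for 41.4% of all genes. Of 43 further genes listed (other receptors, synthesis and breakdown, G proteins and effectors, partners and regulators), 39 were tested in the time course and 22 were called. The smallest p-values were those of Mpdz, a scaffold that binds Htr2c (1.22-fold, peak ZT22.2), Maoa, which degrades serotonin (1.17-fold, peak ZT8.98), Gnai3, an inhibitory G protein subunit (1.12-fold, peak ZT20.4), and Deaf1, a regulator of Htr1a transcription (1.12-fold, peak ZT12.8). The largest folds among the called genes were those of Slc29a4, a plasma membrane monoamine transporter (2.20-fold, peak ZT1.06, adjusted p = 6.38e-05), and of the receptor gene Htr5b (1.97-fold, peak ZT0.19, adjusted p = 0.00142), both named after their values were seen. Both folds were above that of Htr1b, and Htr5b had a median of 8.5 counts per library. Of the remaining receptor genes on the list, Htr6 averaged 3.74 ± 0.875 CPM at ZT06 and 3.88 ± 0.768 CPM in the time course, and Htr3b was at 0 in 115 of 126 and 78 of 92 libraries.

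Between the sexes, the time course showed lower Htr1d, Htr1b, Htr2a and Htr1f and higher Htr4, Htr7 and Htr3a transcripts in males (46 male and 46 female libraries). The 7 of 10 members called compare with 41.1% of all genes, 4 of 10 lower in males with 20.1% and 3 of 10 higher with 21.0%. Htr1d (chromosome 4, 136423524 to 136444398, plus strand) had a lowest, median and highest level of 0.0665, 0.494 and 1.96 CPM in males, against 0.307, 1.48 and 5.90 CPM in females. Of the 46 males, 44 were below the female median, though the groups overlapped. The log2 change was -1.57 ± 0.21 (SE, adjusted p = 1.78e-09).

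Htr1b stood at 5.21, 9.80 and 17.8 CPM (lowest, median, highest) in males and 8.03, 16.5 and 30.5 CPM in females, a log2 change of -0.81 ± 0.07 (adjusted p = 3.20e-17). Htr2a (chromosome 14, 74640840 to 74709494, plus strand), the Gq-coupled receptor of pyramidal neurons, stood at 22.1, 33.8 and 59.1 CPM in males and 27.7, 52.6 and 65.8 CPM in females, a change of -0.64 ± 0.05 (adjusted p = 4.33e-19). In both cases 45 of 46 males lay below the female median. Htr1f, another Gi-coupled receptor (chromosome 16, 64924729 to 65105854, minus strand), differed by -0.27 ± 0.05 (adjusted p = 2.26e-06). Among the receptors higher in males, Htr4 differed by 0.63 ± 0.15 (adjusted p = 0.000312), Htr7, the other Gs-coupled receptor (chromosome 19, 35958734 to 36057507, minus strand), by 0.27 ± 0.05 (adjusted p = 1.45e-06) and Htr3a by 0.16 ± 0.06 (adjusted p = 0.0357). The differences of Htr2c (-0.23 ± 0.12, adjusted p = 0.113), Htr1a (-0.02 ± 0.05, adjusted p = 0.720) and Htr5a (0.04 ± 0.03, adjusted p = 0.329) did not pass.

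Striatal markers moved with these differences. Their sum had a lowest, median and highest level of 195, 249 and 731 CPM in males and 204, 840 and 2154 CPM in females, and 11 of 11 markers were lower in males, with a median log2 change of -1.83. Across single libraries, the sum and Htr1d went together. The male at ZT09 with the lowest sum, 195 CPM, had 0.0674 CPM of Htr1d and 7.76 CPM of Htr1b, and the female at ZT00 with the highest sum, 2154 CPM, had 5.90 CPM of Htr1d and 30.5 CPM of Htr1b. With the mean level of the striatal markers as a covariate, 3 of 10 members were called, against 12.4% of genes. These were Htr2a (-0.48), Htr1b (-0.28) and Htr1f (-0.22), while Htr1d changed sign to 0.25 (adjusted p = 0.352), Htr7 was at 0.06 and Htr4 at 0.42 (adjusted p = 0.180).

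**Figure D3:**
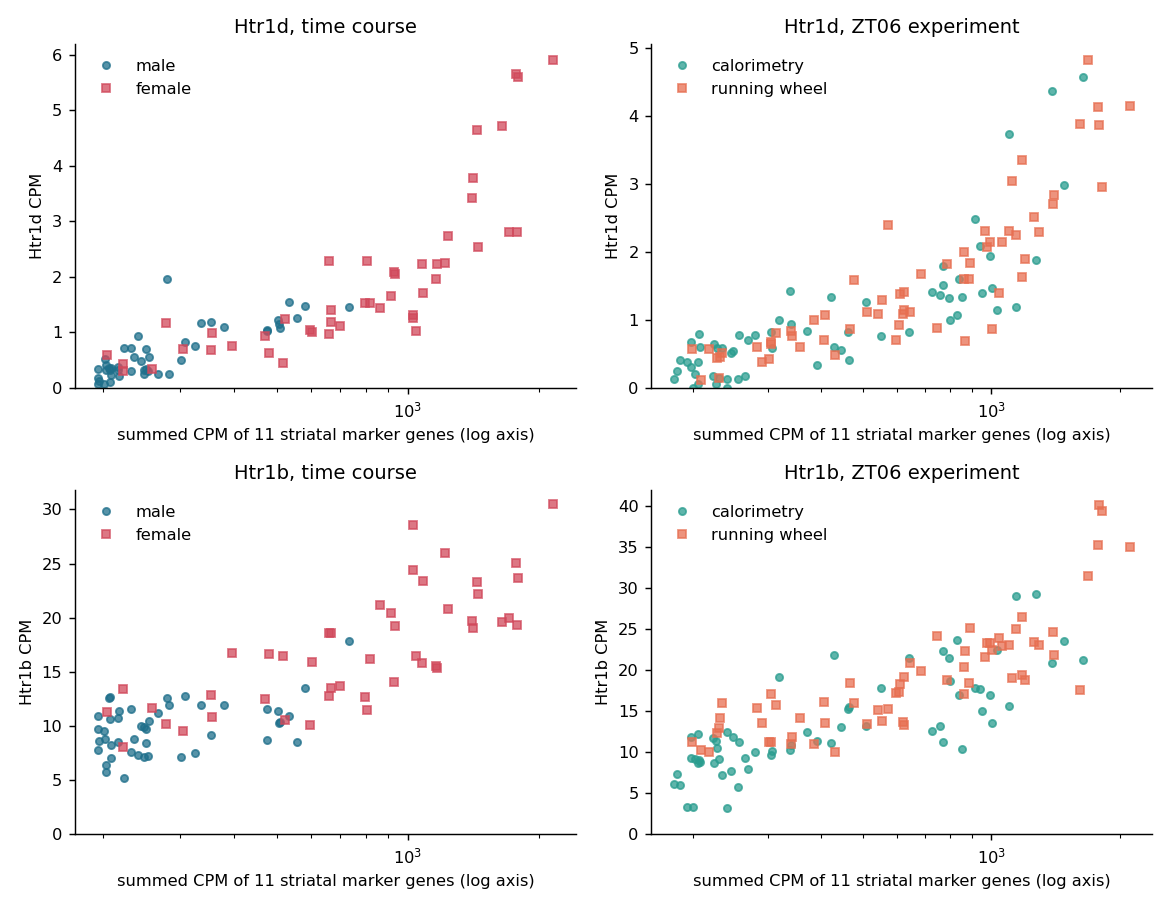
Each point is a library, with the summed CPM of 11 striatal marker genes on a logarithmic horizontal axis and the CPM of Htr1d (upper panels) or Htr1b (lower panels) on the vertical axis, coloured by sex in the time course and by set at ZT06. Libraries richer in striatal markers have more Htr1d and Htr1b, with 0.0674 and 5.90 CPM of Htr1d at the low and high ends of the time course range, and most time course males lie at the low end.

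The genes most alike to each receptor from library to library were sought among 12872 protein-coding genes in the time course, after subtracting the mean of each sex and time, so that the correlations below describe differences within groups. They share library, depth and tissue content. For Htr1d these were Penk (r = 0.87 over 92 libraries, and 0.81 over 126 at ZT06), the enkephalin precursor, and Drd1 (0.85 and 0.79), the dopamine receptor, both on the striatal list. Htr1b went with Srgap1 (0.85 and 0.81) and Strn (0.83 and 0.82), and with Htr1d itself at 0.61 and 0.72. Htr2c went with Vat1l (0.81 and 0.80) and Zcchc12 (0.76 and 0.67).

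Other pairs were weaker in the second table. Htr2a went with Arpp19 (0.82 and 0.53) and Kcnv1 (0.81 and 0.57), Htr4 with Npy2r (0.82 and 0.41) and Dgkg (0.82 and 0.51), and Htr1a with Gabra5 (0.77 and 0.29) and Sertm1 (0.75 and 0.36). Htr5a went with Rora (0.70 and 0.12) and Fgf12 (0.70 and 0.43), and Htr1f with Glrb (0.70 and 0.26) and Kcnh1 (0.69 and 0.10). Htr3a went with Gabra5 (0.57 and 0.17) and Ppm1e (0.54 and 0.30), and Htr7 with Vgll3 (0.54 and 0.08) and Parm1 (0.52 and -0.10). Between members, Htr2c and Htr4 went together (0.75 and 0.42) and Htr2a and Htr4 in opposite directions (-0.74 and -0.39).

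At ZT06 the comparison of males with females (62 and 64 libraries) was made in a model with a mean for each group of mice. Htr1d, Htr2a, Htr1b, Htr5a, Htr1a and Htr1f were lower in males and Htr4 and Htr7 higher. The 8 of 10 members called compare with 58.1% of 18841 genes, 6 of 10 lower with 30.5% and 2 of 10 higher with 27.6%. Htr1d had 0, 0.801 and 4.82 CPM in males and 0.0631, 1.16 and 4.57 CPM in females, a log2 change of -0.65 ± 0.19 (adjusted p = 0.00204). Htr2a had 19.3, 55.7 and 93.3 CPM in males and 46.4, 71.6 and 93.4 CPM in females, a change of -0.36 ± 0.05 (adjusted p = 1.97e-11). Htr5a had 10.1, 20.9 and 29.6 CPM in males and 17.96, 24.3 and 30.1 CPM in females, a change of -0.28 ± 0.04 (adjusted p = 2.86e-11). The groups overlapped for all 3 receptors, with the lowest values of Htr2a and Htr5a in males. Both came from a calorimetry male on 12:12, HET/TG replicate 3, 1 of the 4 least correlated libraries. The median correlation of a library with the others was 0.926 to 0.983 in calorimetry males and 0.982 to 0.989 in calorimetry females. Calorimetry males belong to both the male and the calorimetry groups, and their part in the sex and set differences was not tested.

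The remaining changes between the sexes at ZT06 were -0.30 ± 0.09 for Htr1b (adjusted p = 0.00181), -0.22 ± 0.04 for Htr1a (adjusted p = 9.20e-07), -0.19 ± 0.05 for Htr1f (adjusted p = 0.000229), 0.30 ± 0.11 for Htr4 (adjusted p = 0.0145) and 0.14 ± 0.06 for Htr7 (adjusted p = 0.0330). Htr2c (-0.06 ± 0.10, adjusted p = 0.627) and Htr3a (0.10 ± 0.06, adjusted p = 0.119) did not pass. Of the striatal markers, 8 of 11 were lower in males, with sums of 181, 339 and 1817 CPM in males against 198, 616 and 2109 CPM in females. Of 5 blood markers, 4 were higher in males, with sums of 63.3, 128 and 376 CPM in males against 39.2, 71.8 and 168 CPM in females, and their part in the differences was not tested. The 6 members Htr1d, Htr1b, Htr2a, Htr1f, Htr4 and Htr7 were called with the same sign in both sex comparisons, which were made on different mice. Of all genes, 41.1% were called in the time course and 58.1% at ZT06. The share called with the same sign in both was not counted, so this number says little about receptors as a group. Striatal markers were lower in males in both tables too.

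A possible sign of RNA quality, not tested as such, moved with sex and set at ZT06. This was the slope of a library's log2 levels on log2 exon length, relative to the other libraries. Its lowest, median and highest values were -0.204, -0.061 and 0.054 in males against -0.036, 0.064 and 0.155 in females, and -0.204, -0.036 and 0.084 in calorimetry mice against -0.069, 0.054 and 0.155 in running wheel mice. In the time course its medians were -0.0018 in males and 0.0039 in females. With this slope as a covariate 1 of 10 members was called at ZT06, Htr1d (-1.89, adjusted p = 0.00511), where 15.1% of genes were called, and Htr7 stood at -0.07. The same covariate left 6 of 10 in the time course, without Htr3a. With the striatal covariate in its place, 6 of 10 members were called at ZT06, and Htr1d stood at -0.21 (adjusted p = 0.104). The share of all genes called is not given here for either count of 6, so they say little about receptors as a group. Over the alternatives, the share of all genes called by sex ran from 12.4% to 43.4% in the time course. At ZT06 it ran from 15.1% to 60.4%.

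The 2 sets of ZT06 mice (63 libraries each) differed widely over all genes, receptors among them. Htr1d, Htr1b, Htr2a, Htr5a, Htr2c and Htr1f were lower in calorimetry mice and Htr7 higher. The 7 of 10 members called compare with 62.2% of genes, a share so near that the count says little about receptors as a group, 6 of 10 lower with 32.9% and 1 of 10 higher with 29.3%. Htr2a had 19.3, 54.1 and 78.9 CPM in calorimetry mice, against 48.5, 74.6 and 93.4 CPM in running wheel mice. The groups overlapped, with 59 of 63 calorimetry libraries below the running wheel median. The change was -0.54 ± 0.05 (adjusted p = 2.21e-19).

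Htr1b had 3.24, 11.8 and 29.4 CPM in calorimetry mice and 10.1, 18.3 and 40.1 CPM in running wheel mice, a change of -0.56 ± 0.09 (adjusted p = 2.56e-08). Htr5a had 10.1, 20.8 and 29.2 CPM in calorimetry mice and 16.2, 24.4 and 30.1 CPM in running wheel mice, a change of -0.31 ± 0.04 (adjusted p = 1.80e-13). The groups overlapped, with 50 of 63 calorimetry libraries below the running wheel median for Htr1b and 53 of 63 for Htr5a. The other changes were -0.74 ± 0.19 for Htr1d (adjusted p = 0.000404), -0.26 ± 0.10 for Htr2c (adjusted p = 0.0149), -0.14 ± 0.05 for Htr1f (adjusted p = 0.00503) and 0.17 ± 0.06 for Htr7 (adjusted p = 0.0124). Without the 4 least correlated libraries, the library at 0 among them, Htr7 differed by 0.18 (adjusted p = 0.000177). Those of Htr1a (0.02 ± 0.04), Htr3a (0.07 ± 0.06) and Htr4 (0.08 ± 0.11) did not pass (adjusted p = 0.755, 0.248 and 0.540).

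On 11:11 alone 6 of 10 members were called, against 49.0% of genes. Htr1d differed by -1.18 there, Htr2a by -0.56, Htr1b by -0.36, Htr2c by -0.35, Htr5a by -0.29 and Htr7 by 0.24. On 12:12 alone 5 of 10 were called, against 53.1%. Htr1b differed by -0.75 there, Htr2a by -0.52, Htr5a by -0.33, Htr1f by -0.16 and Htr3a by 0.19. Of the striatal markers, 10 of 11 were lower in calorimetry mice, whose sums were 181, 339 and 1640 CPM, against 199, 625 and 2109 CPM in running wheel mice. Markers of other content moved with set too. Of 8 choroid plexus markers, 6 were lower in calorimetry mice, with sums of 3.75, 15.04 and 2735 CPM against 4.21, 52.7 and 1290 CPM in running wheel mice, and the part of this tissue in the Htr2c difference was not tested. Of 5 blood markers, 4 were higher in calorimetry mice, with sums of 44.3, 127 and 376 CPM against 39.2, 72.7 and 174 CPM. Of 7 oligodendrocyte markers, 6 were higher and 1 lower, with sums of 2964, 4498 and 7641 CPM in calorimetry mice against 2185, 3555 and 4501 CPM in running wheel mice. The part of blood and oligodendrocyte content in the set differences was not tested. With the striatal covariate 4 of 10 members were called, Htr2a (-0.54), Htr5a (-0.35), Htr1b (-0.30) and Htr1f (-0.16), and Htr1d stood at -0.15 (adjusted p = 0.259). This count of 4 is given without the share of all genes called, so it says little about receptors as a group. With the length covariate 3 of 10 were called, Htr1d (-1.93), Htr1b (-0.72) and Htr2a (-0.30), against 30% of genes, and Htr7 stood at -0.04. Htr2a and Htr1b were called under all 14 alternatives of this comparison.

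Between light cycles 1 receptor differed, Htr1d, which was lower on 11:11 than on 12:12. It passed in the calorimetry set and not in the running wheel set, though the difference between the sets did not itself pass, and limma-voom did not call it in calorimetry mice (-0.83, adjusted p = 0.0982). In calorimetry mice it had 0.0611, 0.581 and 1.93 CPM in 31 mice on 11:11, against 0, 0.921 and 4.57 CPM in 32 mice on 12:12. The groups overlapped, and the highest values belonged to 12:12. The change was -1.0006 ± 0.283 (adjusted p = 0.00642), 1 of 10 members called, against 19.6% of genes, and 1 of 10 lower, against 9.13%. In running wheel mice it had 0.141, 1.13 and 4.15 CPM in 32 mice on 11:11 and 0.118, 1.40 and 4.82 CPM in 31 mice on 12:12, a change of -0.12 (adjusted p = 0.974), with 0 of 10 members called, against 0.069% of genes. At an unadjusted p under 0.05 there were also 0 running wheel calls, against 7.46% of genes, and DESeq2 and limma-voom called 0.

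The difference between the sets in this light cycle effect was -0.88 ± 0.38 and did not pass (adjusted p = 0.174). It was called for 0 of 10 members, against 5.32% of genes, although Htr1d, Htr1b (0.39 ± 0.17) and Htr3a (-0.24 ± 0.11) had unadjusted p-values under 0.05, as did 18.9% of genes. DESeq2 and limma-voom called 0 members. A difference between the sexes in the light cycle effect was called for 0 of 10, against 5.54% of genes, and the smallest adjusted p was 0.0942, for Htr3a (-0.30 ± 0.11). Htr3a was also the 1 member at an unadjusted p under 0.05, where 19% of genes passed. DESeq2 called 1 member there and limma-voom 0. Without the filter on low counts, edgeR called Htr1d (-0.87, adjusted p = 0.00394) and Htr1b (0.39, adjusted p = 3.13e-07) for the difference between sets, and Htr1b and Htr2a for that between sexes. It also called Htr1b between the light cycles in calorimetry mice (0.20, adjusted p = 0.000878) and in running wheel mice (-0.20, adjusted p = 0.00352). Over both sets together the Htr1d effect of light cycle was -0.56 ± 0.19 (adjusted p = 0.0352), 1 of 10 members against 12.6% of genes, or 5.15% for lower levels. That call was lost without replicate number 1, 3 or 4, in limma-voom, and with either covariate (-0.22 and adjusted p = 0.206 with the striatal one).

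In calorimetry mice split by sex, Htr1d changed by -1.21 in males (adjusted p = 0.0512) and -0.79 in females (adjusted p = 0.145), with 0 of 10 members called in each, against 13.5% and 12.3% of genes. At an unadjusted p under 0.05 there was 1 member in males (27.6% of genes) and 2 in females (24.6%). DESeq2 called 1 member in males and 0 in females, and limma-voom 0 in both. Running wheel mice split by sex gave 0 of 10 calls in males (0.0% of genes) and in females (0.276%) with each of the 3 tools. The unadjusted counts there were 0 in males (3.98% of genes) and 1 in females, Htr3a (10.0%). The striatal sums of the calorimetry set were 181, 319 and 1275 CPM on 11:11 and 193, 406 and 1640 CPM on 12:12, with 1 of 11 markers called lower and a median change of -0.51. With the striatal covariate Htr1d stood at -0.53 (adjusted p = 0.0154) and Htr1b was called as well, higher on 11:11 (0.37, adjusted p = 6.79e-05). With the length covariate Htr1d stood at -0.69 (adjusted p = 0.127). Without the 4 least correlated libraries it was -1.14 (adjusted p = 0.00187).

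The other 9 receptors showed small light cycle effects over both sets. Their changes lay between -0.05 and 0.03, and the widest 95% interval, that of Htr4, ran between -0.18 and 0.24 on the log2 scale. Of the 40 further pathway genes tested, 4 were called, against 12.6% of all genes: Gnaq and Ddc were higher on 11:11 and S100a10 and Slc22a3 lower. S100a10, which binds Htr1b and Htr1d and carries Htr1b to the cell surface, differed by -0.15 ± 0.04 (adjusted p = 0.00341). Slc22a3, a low-affinity monoamine transporter, differed by -0.43 ± 0.13 (adjusted p = 0.0214).

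**Figure D4:**
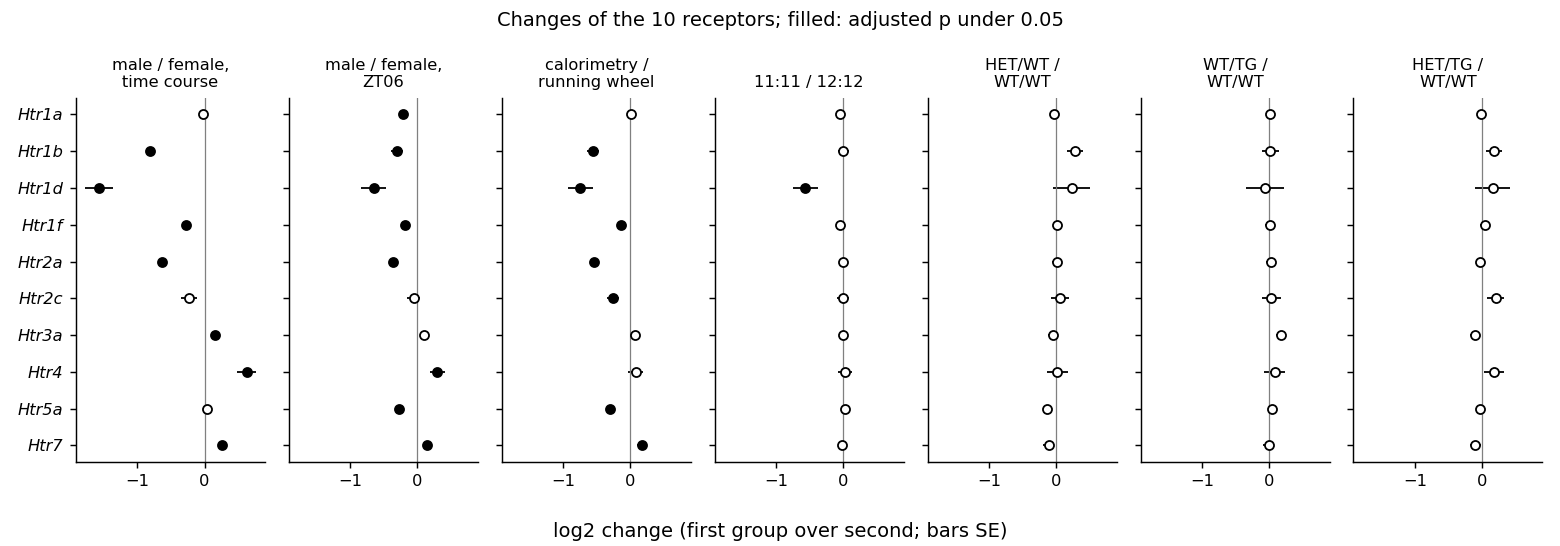
Points are log2 changes of the 10 receptors with SE bars, 1 panel per comparison, filled where the adjusted p was under 0.05. Sex and set panels hold 7 or 8 filled points with Htr1d farthest left, the light cycle panel only Htr1d at -0.56, and the 3 genotype panels none.

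With the filter on low counts, no receptor passed in any comparison of Snord116 genotypes. Called members numbered 0 of 10 for HET/WT against WT/WT (0.0425% of genes called), 0 for WT/TG (0.0159%), 0 for HET/TG (0.0478%) and 0 for HET/TG against HET/WT (0.0106%). DESeq2 also called 0 of 10 in each, as did limma-voom. At an unadjusted p under 0.05 there were 2, 1, 0 and 1 members, where 6.40%, 4.26%, 6.07% and 7.00% of all genes passed. The 3 comparisons with WT/WT share their controls. Without the filter on low counts, edgeR called Htr1b in HET/WT (0.28, adjusted p = 7.32e-07) and Htr1b (0.18, adjusted p = 0.0485) and Htr2c (0.20, adjusted p = 0.000728) in HET/TG. The log2 changes were nearly the same with the filter, and the SE of Htr1b in HET/WT was 0.0455 without it and 0.122 with it. A difference of the HET/WT effect by light cycle, sex or set was called for 0 of 10 members, against 0.0% of genes each, in edgeR, DESeq2 and limma-voom. The unadjusted counts were 0 in each, against 7.06%, 5.58% and 4.31% of genes. Without the library that went against its label, the HET/WT count was 0 as well, with Htr5a at -0.14, Htr1b at 0.29 and Htr2c at 0.06.

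Htr2c, the receptor gene with complementarity to Snord115, had a lowest, median and highest level of 8.80, 19.2 and 50.01 CPM in 32 HET/WT libraries, 9.91, 19.4 and 40.04 CPM in 30 WT/TG libraries, 9.06, 20.6 and 53.3 CPM in 32 HET/TG libraries and 10.2, 17.05 and 52.3 CPM in 32 WT/WT libraries. The 4 ranges lay over each other. The log2 change was 0.05 in HET/WT (95% interval -0.21 to 0.32), 0.03 in WT/TG (-0.23 to 0.30) and 0.20 in HET/TG (-0.06 to 0.46). Smaller changes of the gene's summed transcripts could not be seen with this number of mice.

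Htr5a came nearest to a genotype difference. It had 12.1, 21.1 and 26.8 CPM in HET/WT libraries, 13.4, 24.2 and 29.6 CPM in WT/TG libraries, 10.1, 23.5 and 30.1 CPM in HET/TG libraries and 12.1, 23.9 and 29.3 CPM in WT/WT libraries. In HET/WT, 26 of 32 libraries lay below the WT/WT median, a change of -0.14 ± 0.05 (unadjusted p = 0.00634, adjusted p = 0.661 in edgeR). Htr1b changed by 0.28 ± 0.12 in HET/WT (unadjusted p = 0.0230, adjusted p = 0.712 in edgeR), with medians of 16.5 CPM there and 12.6 CPM in WT/WT. Htr3a changed by 0.18 ± 0.08 in WT/TG (unadjusted p = 0.0270, adjusted p = 1.00 in edgeR). These differences did not pass.

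**Figure D5:**
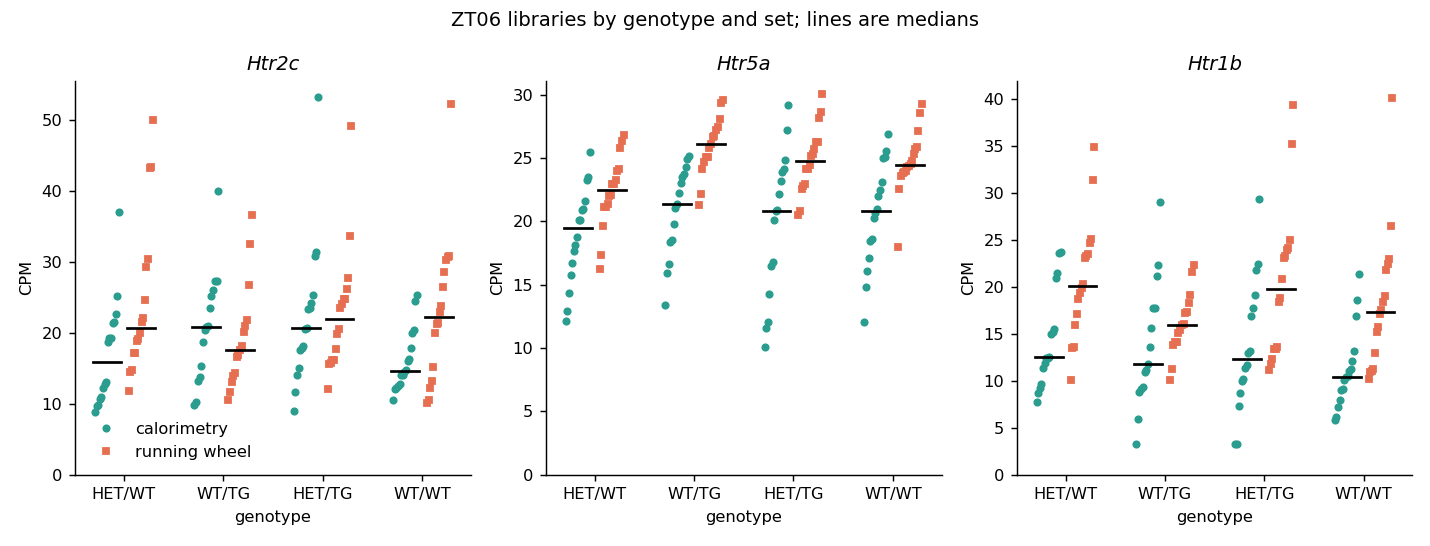
Each point is a ZT06 library, with the CPM of Htr2c, Htr5a and Htr1b on the vertical axes, genotypes along the horizontal axes, calorimetry left of running wheel in each genotype and lines at the medians. Genotypes overlap throughout, while for Htr5a and Htr1b the calorimetry medians lie below the running wheel medians in each genotype.

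Other genes of the serotonin pathway were called between sexes and between sets, and none in HET/WT mice. In the time course 17 of 39 tested genes were higher and 11 lower in males, against 21.0% and 20.1% of all genes, where the smallest p-values were those of Gnal, the olfactory type Gs subunit also of striatal neurons (-0.74 ± 0.06), Adcy1 (0.42 ± 0.04) and Adcy5 (-0.74 ± 0.09), adenylyl cyclases, and Ppp1r1b, the DARPP-32 phosphatase inhibitor (-1.41 ± 0.14). At ZT06 8 of 40 were higher and 16 lower in males, against 27.6% and 30.5% of all genes. Between the sets 12 were higher and 19 lower in calorimetry mice, against 29.3% and 32.9%. S100a10 had the smallest p-value between the sets, higher in calorimetry mice by 0.53 ± 0.04 (adjusted p = 1.14e-25), and between the sexes at ZT06, higher in males by 0.64 ± 0.04 (adjusted p = 1.55e-31). In HET/WT mice 0 of 40 pathway genes were called in edgeR, against the background given above.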

How the data were processed

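Expression was read as raw read counts per gene in 2 tables, which the authors deposited and which were analysed apart. The submitters' processing notes name mm10, STAR, Trim Galore, SAMtools and limma. Which counter, annotation, strand setting and versions made the counts is not given in the sources used here, so overlapping genes may share reads. Columns were matched to samples by name, and 1 sample, a WT/TG running wheel male on 12:12, is not analysed here.

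Gene names, lengths and positions came from GENCODE M21. Counts were filtered with filterByExpr, scaled by TMM and tested across all genes in edgeR 4.0.16 (R 4.3.3), with a mean for each of the 32 groups at ZT06 and with sex and a 24 h cosine and sine in the time course. The fits were tested on simulated data with known changes. Peak times and peak-to-trough folds have 95% intervals from that fit. CPM per kb used the union of exons.

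Of the lists, all members are named, at most 4 called pathway genes by smallest p, and the 2 genes most alike to each member. The members and lists were chosen with earlier results of these data known. Alternatives were RLE scaling, no filter, DESeq2 1.42.0, limma-voom (limma 3.58.1), a replicate block, each replicate number left out, time as a factor, each sex or set alone and leaving out the library against its label. Chosen after seeing the data were covariates for exon length slope and striatal markers, and leaving out the 4 least correlated libraries or the library richest in ribosomal RNA. Replicates are labelled biological.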

Additional observations from a re-analysis of the deposited data

Results flagged for a closer look

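Each of the 6 receptors called rhythmic was looked at within each sex and time of the time course, 96 groups of 5 or 6 mice in all. In 9 of them a single mouse stood far from the others of its group, where chance gives about 1 in 20. In 5 of the 9 the mouse was among the 4 libraries least correlated with the rest. The female at ZT21 replicate 4 had 84.31 CPM of Htr2c (others 12.4 to 20.2) and 6.697 CPM of Htr4 (others 0.9436 to 1.667). The female at ZT00 replicate 6 had 6.759 CPM of Htr4 (others 1.212 to 2.561) and 23.89 CPM of Htr1a (others 16.57 to 17.3). The female at ZT03 replicate 5 had 25.53 CPM of Htr1a (others 16.18 to 19.65).

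The other 4 came from libraries that did not stand apart as a whole. Htr1b was high in the male at ZT21 replicate 3, at 17.83 CPM (others 10.89 to 12.7). Htr2c was high in the female at ZT12 replicate 2, at 36.64 CPM (others 14.51 to 18.26). Htr5a was high in the female at ZT03 replicate 1, at 23.22 CPM (others 16.89 to 19.24). Htr3a was low in the female at ZT18 replicate 4, at 1.772 CPM (others 2.887 to 3.286).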

How the results depend on the processing

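Numbers of the 10 members called are given here under settings that moved them by over 1.5 times. The share of all genes called is not given beside each of them, so a changed count says little about receptors as a group. With the striatal covariate, counts were 3 for males against females in the time course (7 without it), 4 for the sets (7), 3 for the sets on 11:11 (6), 0 for the light cycles (1), 2 in calorimetry mice (1), 1 in calorimetry females (0) and 1 for the light cycle effect by set (0). Htr1d then stood at 0.25 (adjusted p = 0.352 in edgeR) and Htr3a at -0.022 (adjusted p = 0.906) between the sexes of the time course, both with the sign turned. With the exon length covariate, counts were 1 for males against females at ZT06 (8), 3 for the sets (7), 2 on each light cycle (5 on 12:12, 6 on 11:11), and 0 for the light cycles overall and in calorimetry mice (1 each). Htr7 turned to -0.043 between the sets and -0.071 between the sexes at ZT06. In limma-voom the light cycle counts were 0 overall and in calorimetry mice. With no filter on low counts they were 2 in calorimetry mice and in calorimetry females, 1 in calorimetry males, running wheel mice and running wheel males, 2 for the light cycle effect by set and by sex, 1 for HET/WT and 2 for HET/TG. RLE scaling, DESeq2 and leaving out the 4 least correlated libraries gave 1 in calorimetry males, and DESeq2 gave 1 for the light cycle effect by sex. Females alone gave 2 rhythmic members (6 in both sexes).

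Leaving out 1 replicate number at a time gave 0 to 1 for the light cycles, 3 to 4 for the sets on 12:12, 3 to 6 on 11:11 and 5 to 7 for the sexes at ZT06. The cause of these changes was not tested. With the replicate number as a block every count kept its value, among them 6 rhythmic members and 7 by sex in the time course, and 8 by sex, 7 by set and 1 by light cycle at ZT06. After group means were removed, same-numbered libraries of different groups correlated at a mean of 0.0055 in the time course and 0.0136 at ZT06. For libraries of other numbers the means were -0.00075 and -0.0045. In the time course, with up to 6 numbers, 20 of 92 libraries correlated best with their own number. At ZT06, with up to 4 numbers, 48 of 126 did. Whether the numbers link some of the mice was not tested. Depth limits Htr1d most, with a median of 15 to 17 counts per library.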
